A study of Rattus norvegicus with 6 samples.

Results

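Expression of 10 genes of the circadian clock and its output was examined in rat liver: Bmal1 (formerly Arntl), Npas2, Clock, Nr1d1, Nr1d2, Per2, Per3, Dbp, Tef and Noct. They are 10 of the 15284 genes that could be named on the array, and 25 of its 61657 non-control probes carried a RefSeq accession of theirs. Livers came from male Sprague-Dawley rats, an outbred stock, 9 weeks old, kept in 12 h of light and 12 h of dark and dosed with 5 mL/kg/day of corn oil. That dosing lasted 3 days by the design text and 9 weeks by the treatment protocol. Before they were killed, 3 rats were anaesthetised with isoflurane, a volatile agent breathed in as vapour, and 3 with CO2/O2, carbon dioxide mixed with oxygen. Each 1-colour array held the liver RNA of 1 rat. All rats had the corn oil, none was left without anaesthesia, and the sources used here do not give the time of day at killing.

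The circadian clock is a feedback loop of transcription. BMAL1 pairs with CLOCK or with its paralog NPAS2 and, at E-box motifs, switches on Per, Cry, Nr1d1, Nr1d2, Dbp and Tef. PER and CRY proteins then block that pair, while the REV-ERB receptors encoded by Nr1d1 and Nr1d2 repress Bmal1, Clock and Npas2 at ROR elements. DBP and TEF, bZIP factors of the PAR family, act at D-box motifs and carry the rhythm to enzymes of liver metabolism. In rodent liver the mRNAs of the activators Bmal1, Npas2 and Clock peak at a time of day roughly opposite to those of Nr1d1 and Dbp. Noct encodes nocturnin, a protein of the deadenylase family with a strong rhythm in rodent liver.

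The DNA just before the gene start is shown for the 4 genes in which a clock motif was found, 1 activator and 3 repressor or output genes. These are the 250 bases upstream of the RefSeq gene start in the assembly GRCr8, written 5′ to 3′ on the gene's strand, and capitals mark clock motifs found on either strand. The motifs searched were the E-box CACGTG, its variant CACGTT, the D-box as TTACGTAA or TTATGTAA, and the core of the ROR element as TAGGTCA or TGGGTCA. Matches of different motifs did not overlap. Bmal1 lies at chr1:176766078-176766327 (+), the second of 2 listed starts of Nr1d1 at chr10:84229455-84229704 (-), Per2 at chr9:99496994-99497243 (-) and Tef at chr7:115206577-115206826 (+).
Bmal1: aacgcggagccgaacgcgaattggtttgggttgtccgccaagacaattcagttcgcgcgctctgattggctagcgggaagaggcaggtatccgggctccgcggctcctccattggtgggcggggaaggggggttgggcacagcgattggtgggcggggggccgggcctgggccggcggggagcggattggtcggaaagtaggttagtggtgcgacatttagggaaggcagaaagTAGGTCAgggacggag
Nr1d1: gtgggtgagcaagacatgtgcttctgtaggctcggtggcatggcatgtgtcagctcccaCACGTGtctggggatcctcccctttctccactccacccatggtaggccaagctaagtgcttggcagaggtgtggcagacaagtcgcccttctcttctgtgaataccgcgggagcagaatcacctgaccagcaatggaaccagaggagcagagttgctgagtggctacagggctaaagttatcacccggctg
Per2: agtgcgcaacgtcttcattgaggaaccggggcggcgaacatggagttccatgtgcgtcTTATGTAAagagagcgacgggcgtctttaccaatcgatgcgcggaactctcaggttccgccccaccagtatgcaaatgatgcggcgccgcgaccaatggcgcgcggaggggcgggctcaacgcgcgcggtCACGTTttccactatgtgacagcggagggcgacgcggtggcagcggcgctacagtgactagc
Tef: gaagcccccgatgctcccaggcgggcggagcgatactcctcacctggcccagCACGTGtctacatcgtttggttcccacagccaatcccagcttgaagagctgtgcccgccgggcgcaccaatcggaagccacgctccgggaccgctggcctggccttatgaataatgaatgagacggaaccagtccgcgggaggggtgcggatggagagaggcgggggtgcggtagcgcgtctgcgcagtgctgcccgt
The ROR core of Bmal1 began 16 bases before its start. The E-boxes of Nr1d1 and Tef began 191 and 198 bases before theirs, and Per2 held the D-box at 192 bases and the E-box variant at 62 bases. The first start of Nr1d1 held the E-box variant 174 bases before it. The other members, Npas2, Clock, Nr1d2, Per3, Dbp and Noct, had none of these letters in that window. Among 33469 RefSeq promoter windows of the same length, 5.59% held the E-box, 4.07% its variant, 0.932% the D-box and 5.62% the ROR core.

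Each value below is a log2 signal, the log2 of the background-corrected intensity of a probe less that of the 75th percentile of its array, so 0 marks that percentile. The share of probes well above background was 53.4% to 60.6% on isoflurane arrays and 56.9% to 62.3% on CO2/O2 arrays. Hepatocyte markers such as Alb, Apoa1 and Ttr were bright on all arrays, and the 8 markers summed to 2786 to 3030 times the percentile after isoflurane and 2828 to 3038 times after CO2/O2. Isoflurane replicates 2 and 3 stood furthest apart from the rest. Of 10597 genes, those lying at least 1 log2 unit outside all 5 other arrays numbered 24, 77 and 110 on isoflurane replicates 1 to 3, against 41, 7 and 11 on CO2/O2 replicates 1 to 3. The slide was the same for all 6 arrays. Isoflurane replicates 2 and 3 lay in its row 2, and isoflurane replicate 1 and the CO2/O2 replicates in its row 1. In the fit across all 34637 tested probes, 3 probes, or 0.00866%, passed an adjusted p of 0.05 in limma, and they matched no named gene.

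The 10 genes are described between the groups, because they were chosen with their isoflurane against CO2/O2 values known. They were part of the fit across all probes, but no p-value is given for any of them, only counts. At their brightest probe, 6 genes had a higher mean after isoflurane (Nr1d1, Nr1d2, Per2, Per3, Dbp, Tef) and 4 a lower mean (Bmal1, Npas2, Clock, Noct). In limma 0 of the 10 passed adjusted p 0.05, as did 0 of 10609 genes (0%), and at an unadjusted p under 0.05 there were 7 of the 10, against 7.58% of genes. The groups were fully separate for 7 genes (Nr1d2, Per2, Per3, Dbp, Tef, Bmal1 and Npas2), while the background share of such genes was 14.2%. As the genes were chosen with these values known, both counts of 7 restate that choice. Neither count can be read as an excess over its background share. Differences are isoflurane minus CO2/O2, in log2 units with their standard error (SE) from limma. In bulk liver, fewer cells of a type and less RNA per cell cannot be told apart.

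**Figure D1:**
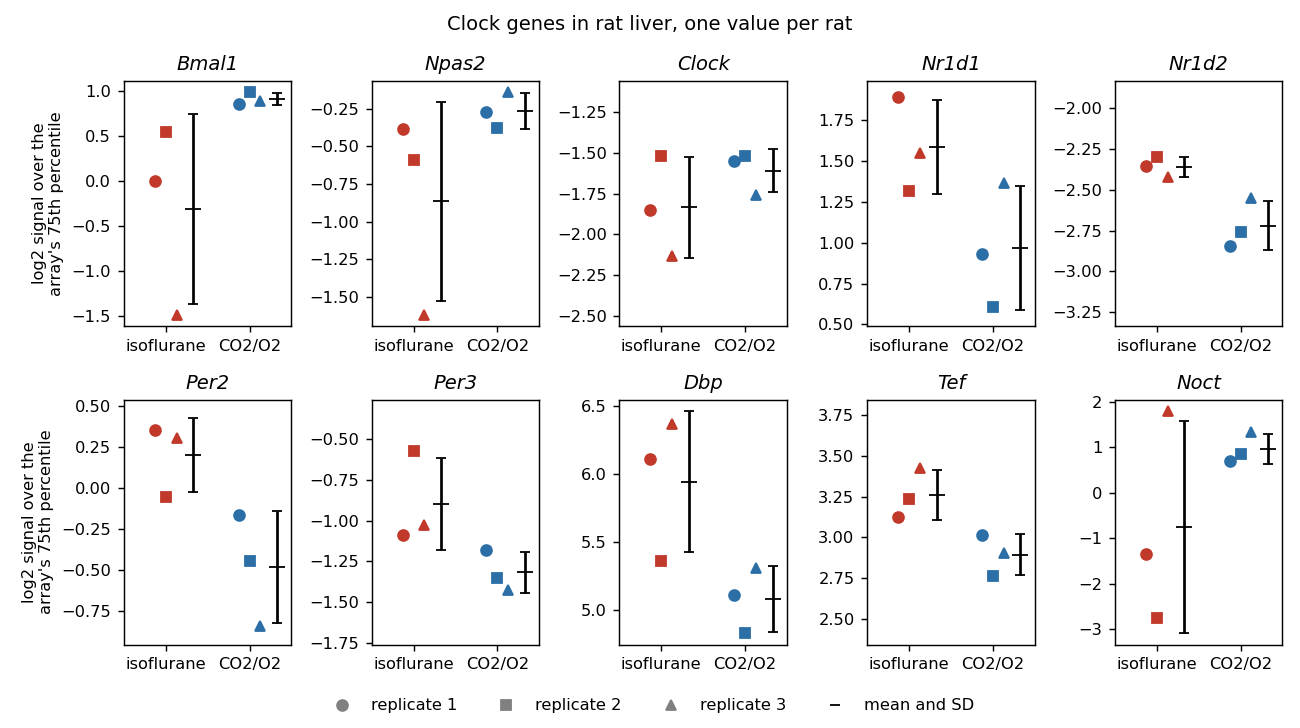
Log2 signal of the 10 genes (vertical axes, each gene on its own scale) at the brightest probe, in isoflurane rats (red, left) and CO2/O2 rats (blue, right); symbols are replicates and the bar is the mean with its SD (n = 3). Bmal1 and Npas2 lie lowest in isoflurane replicate 3, and Noct spans 4.56 log2 units among isoflurane rats against 0.64 among CO2/O2 rats.

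Bmal1, the obligate partner in the activating pair, was lower in all 3 isoflurane rats. Its log2 signal was 0.01, 0.55 and -1.48 in isoflurane rats 1 to 3, against 0.86, 0.99 and 0.90 in CO2/O2 rats 1 to 3. The CO2/O2 rats were nearly alike, with an SD of 0.07 log2 units against 1.05 among isoflurane rats, and isoflurane rat 3 lay far below the rest. The difference in means was -1.23 (SE 0.49), or 2.34-fold lower after isoflurane. Without isoflurane replicate 3 it was -0.64, and without isoflurane replicate 2 it was -1.66. The dimmer probe of Bmal1 had -2.21, -1.93 and -3.73 in isoflurane rats, against -1.33, -1.30 and -1.04 in CO2/O2 rats. This gave a difference of -1.40 (SE 0.46), with the same rat lowest.

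Npas2, the paralog of Clock that can replace it beside BMAL1, had -0.38, -0.59 and -1.62 in isoflurane rats, against -0.27, -0.38 and -0.14 in CO2/O2 rats. The groups were only just separate, with isoflurane rat 1 level with CO2/O2 rat 2 and isoflurane rat 3 far below the rest. The difference of -0.60 (SE 0.32) was -0.22 without that rat. The probes of Npas2 disagreed on it. A second probe had -1.47, -1.74 and -1.72 in isoflurane rats, against -1.58, -1.32 and -1.62 in CO2/O2 rats, so that isoflurane rat 3 was not low and the groups overlapped. The dimmest probe had its lowest value, -6.45, in isoflurane rat 3, where it was not well above background.

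Clock, which encodes the other partner of BMAL1, differed less between the groups. Its brightest probe had -1.85, -1.52 and -2.14 in isoflurane rats, against -1.55, -1.52 and -1.76 in CO2/O2 rats. The groups overlapped, and isoflurane rat 3 was again the lowest of the 6. The difference was -0.22 (SE 0.17), with -0.31 (SE 0.16) and -0.26 (SE 0.11) at its other probes. Without isoflurane replicate 3 it was -0.07, and without isoflurane replicate 2 it was -0.38.

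Nr1d1 and Nr1d2, which encode the REV-ERB repressors, were each read by 1 probe. Nr1d1 had 1.89, 1.32 and 1.55 in isoflurane rats, against 0.93, 0.61 and 1.37 in CO2/O2 rats, a difference of 0.62 (SE 0.23). The groups overlapped, as CO2/O2 rat 3 lay just above isoflurane rat 2. Nr1d2 had -2.35, -2.30 and -2.42 in isoflurane rats, against -2.85, -2.76 and -2.55 in CO2/O2 rats, with a difference of 0.36 (SE 0.10). All 3 isoflurane rats were above all CO2/O2 rats and were close together, with an SD of 0.06. Isoflurane rat 3, the lowest for Bmal1, was in the middle of its group for Nr1d1 and at the low end for Nr1d2.

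Per2, a core repressor also induced by hormonal signals, had 0.35, -0.06 and 0.31 in isoflurane rats, against -0.16, -0.45 and -0.84 in CO2/O2 rats. The groups did not overlap, and the difference was 0.69 (SE 0.20), or 1.61-fold higher after isoflurane, at its only probe. Per3, a paralog less needed for the core rhythm, had -1.09, -0.57 and -1.03 in isoflurane rats, against -1.18, -1.35 and -1.43 in CO2/O2 rats at its brightest probe. That difference was 0.42 (SE 0.16), with isoflurane rat 2 the highest. It was 0.26 without isoflurane replicate 2.

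The 5 probes of Per3 had the same direction between groups but not the same order of rats. The second brightest had -2.79, -3.02 and -2.42 in isoflurane rats, against -3.30, -3.21 and -3.23 in CO2/O2 rats, a difference of 0.50 (SE 0.16). There isoflurane rat 2 was the lowest of its group, whereas at the brightest probe it was the highest. The third gave a difference of 0.71 (SE 0.25), from -3.14, -3.67 and -2.70 in isoflurane rats and -3.94, -3.72 and -4.00 in CO2/O2 rats. With each group's mean removed, the correlation over the 6 arrays between the brightest probe and the other 4 ran from -0.94 to -0.70. The 2 dimmest probes were not well above background on all arrays of either group and were not tested.

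Dbp, the PAR bZIP factor with the strongest rhythm in rodent liver, was far above the 75th percentile in all rats. It had 6.11, 5.36 and 6.37 in isoflurane rats, against 5.11, 4.83 and 5.31 in CO2/O2 rats. All isoflurane rats were above all CO2/O2 rats, though isoflurane rat 2 cleared the highest of them only narrowly. The difference was 0.86 (SE 0.28), or 1.82-fold higher after isoflurane, with 0.98 (SE 0.24), 1.08 (SE 0.24) and 0.98 (SE 0.25) at its 3 other probes. The 4 probes ordered the isoflurane rats alike, with group-centred correlations to the brightest of 0.98 to 1.00.

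Tef, its paralog, had 3.12, 3.23 and 3.43 in isoflurane rats, against 3.02, 2.76 and 2.91 in CO2/O2 rats. Its second probe had -0.09, -0.22 and -0.03 in isoflurane rats, against -0.49, -0.55 and -0.38 in CO2/O2 rats. The groups did not overlap at either probe, and isoflurane rat 3 was the highest at both. The differences were 0.37 (SE 0.12) and 0.36 (SE 0.09).

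Noct had the widest spread between rats of the 10 genes. Its log2 signal was -1.34, -2.75 and 1.81 in isoflurane rats, against 0.71, 0.85 and 1.35 in CO2/O2 rats. Isoflurane rats 1 and 2 were below every CO2/O2 rat and isoflurane rat 3 above every CO2/O2 rat, so the groups overlapped. Within the isoflurane group the range of 4.56 log2 units is 23.6-fold, and among CO2/O2 rats it was 0.64 log2 units. The difference in means of -1.73 (SE 1.09) was -3.01 without isoflurane replicate 3 and -0.73 without isoflurane replicate 2. A second probe gave -1.81 (SE 1.09) with a group-centred correlation to the first of 1.00. The third, well above background in 2 of 3 isoflurane rats, gave -1.22 (SE 1.00).

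**Figure D2:**
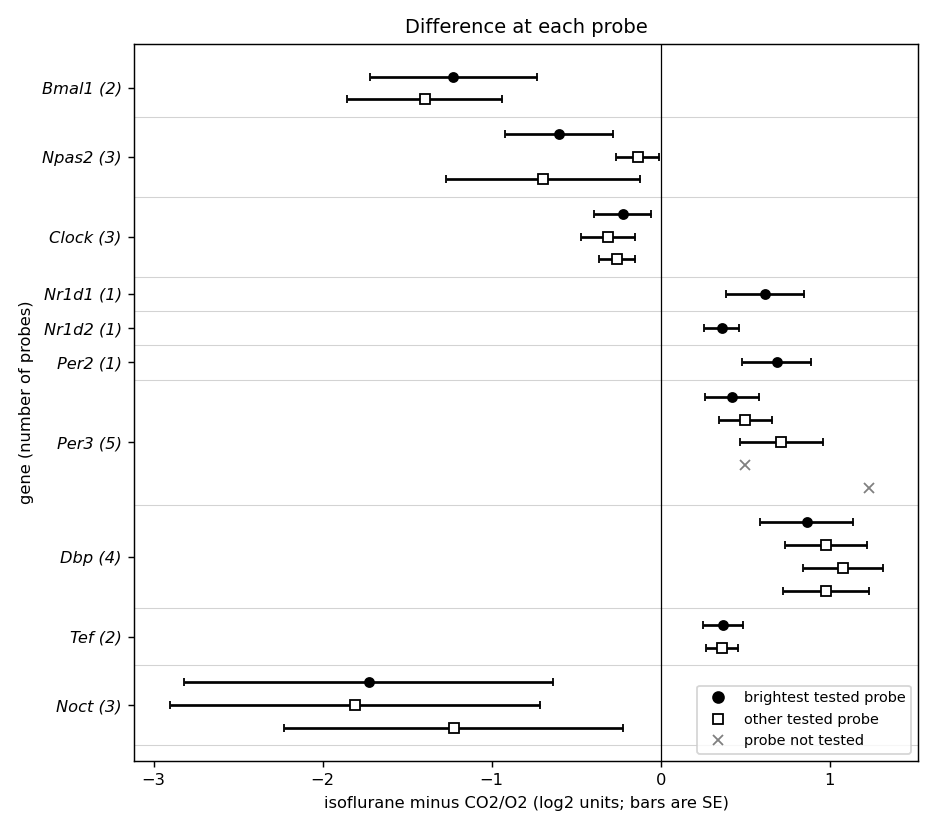
Isoflurane minus CO2/O2 at each of the 25 probes (horizontal axis, log2 units; bars are SE from limma), grouped by gene with brighter probes above; filled circles are the brightest tested probes and crosses the 2 probes not tested. All 13 other tested probes lie on the same side of 0 as the brightest probe of their gene, while the second probe of Npas2 lies at -0.14.

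Of the 25 probes, 21 were well above background on all 6 arrays and 23 were tested, and no spot of theirs was marked as an outlier. Nr1d1, Nr1d2 and Per2 had 1 probe each, so for them no second reading exists. At the other 7 genes, 13 of 13 further tested probes had the sign of the brightest, which follows in part from sharing the same 6 RNA samples. Signals of different probes are not comparable as levels, so the genes are not ranked by abundance.

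Spread between rats of the same group differed widely among the 10 genes. The within-group SD was above the median of all tested genes, 0.15 log2 units, for 8 of the 10, and above their 90th percentile, 0.39, for Bmal1, Npas2, Dbp and Noct. Noct was higher in SD than 99.7% of genes and Bmal1 than 97.6%, while Tef and Nr1d2 were higher than 47.7% and 36.4%. The SD was larger among isoflurane rats than among CO2/O2 rats for 7 of the 10 genes, against 60.9% of all genes. The 3 exceptions were Nr1d1, Nr1d2 and Per2.

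**Figure D3:**
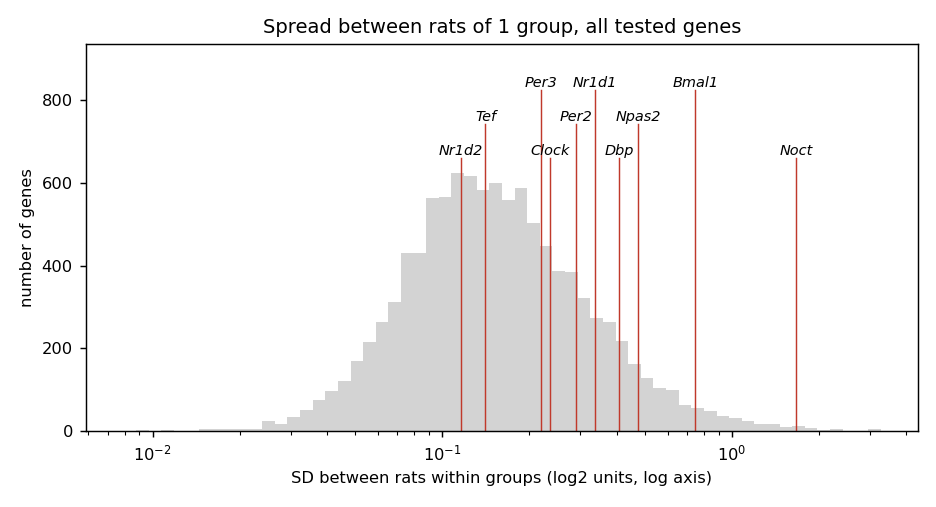
Number of genes (vertical axis) by SD between rats within groups (horizontal axis, log2 units on a log scale) for the 10609 tested genes, in grey; red lines mark the 10 clock genes. Noct at 1.67 and Bmal1 at 0.75 lie in the upper tail, and Nr1d2 at 0.12 lies below the median of 0.15.

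The activators were lowest where the output genes were high, but the rat with the lowest activators was set apart in the activators more than in the outputs. Relative to each gene's mean over 6 arrays, Bmal1, Npas2 and Clock averaged -0.08, 0.14 and -1.09 in isoflurane rats 1 to 3, against 0.34, 0.36 and 0.33 in CO2/O2 rats. The 6 repressor and PAR bZIP genes averaged 0.33, 0.15 and 0.35 in isoflurane rats, against -0.20, -0.41 and -0.22 in CO2/O2 rats. Isoflurane rats 1 and 3 were thus alike in the outputs and far apart in the activators. All 6 output genes were above their mean in isoflurane rats 1 and 3 and 5 of 6 in isoflurane rat 2, against 0, 0 and 1 in CO2/O2 rats 1 to 3. These deviations hold the group contrast by which the genes were chosen, so their split between groups restates that choice. With each group's mean removed, isoflurane rat 3 averaged -0.74 in the activators and 0.08 in the outputs.

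**Figure D4:**
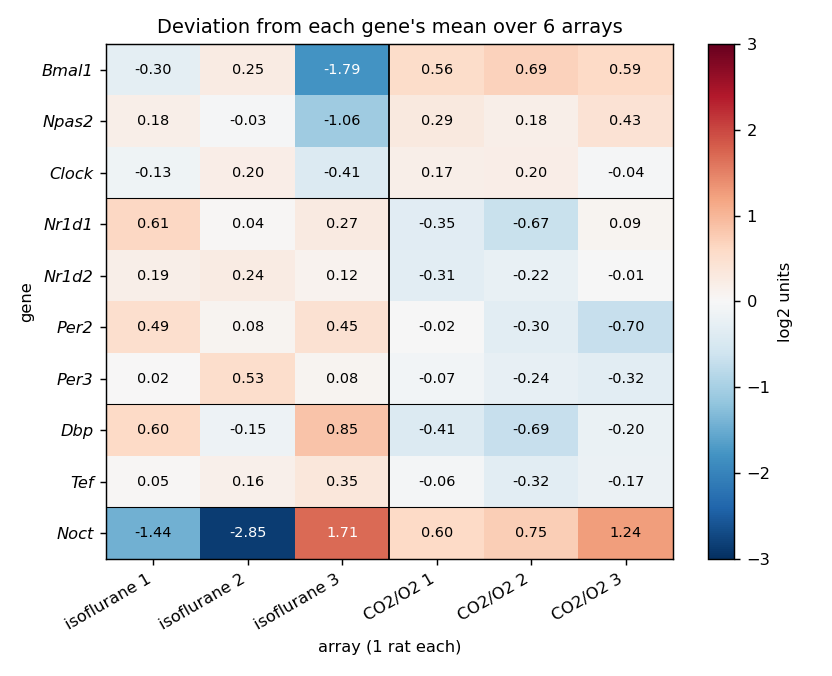
Deviation of each gene (rows) on each array (columns, isoflurane left) from its mean over the 6 arrays, in log2 units, with red above and blue below that mean. Bmal1 at -1.79 and Npas2 at -1.06 are low in isoflurane rat 3, where Dbp is at 0.85 and Noct at 1.71.

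With each group's mean removed, 3 of 3 activator pairs were positively correlated over the 6 arrays, with r from 0.62 to 0.89. That was at the brightest probe of each gene. Removing the means takes out the difference between groups. The genes were still chosen with results of these arrays known, so the correlations are not independent of that choice. From the brightest to the dimmest probe of Npas2, r with Bmal1 was 0.89, 0.19 and 0.90. Over the 18 pairs of an activator with an output gene, 11 were negative and 7 positive, with a median r of -0.19. Among the 15 pairs of output genes, 7 were positive and 8 negative (median -0.08), at the brightest probe of each gene. These signs depend on the probe: Per3 had r of -0.81 with Dbp at its brightest probe and 0.63 to 0.80 at its 4 others, and Tef had 0.45 and 0.95 at its 2 probes. These describe 6 arrays of 1 slide and are not tested. The averages of the activators and of the 6 outputs had Pearson r of -0.52 and Spearman rho of -0.77. The rho was weaker, at -0.26, with quantile normalization, -0.37 with median centring and -0.49 with probe means, where Pearson r was -0.45, -0.50 and -0.58. Leaving out each array in turn gave Pearson r between -0.73 and -0.15, the weakest without isoflurane replicate 2.

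The strongest of these relations joined Bmal1 and Noct. Their group-centred r was -0.99, lower than that of Bmal1 with all but 0.17% of other genes. It was -0.88 without isoflurane replicate 3 and -0.98 without isoflurane replicate 2. The CO2/O2 rats hardly varied in Bmal1, with an SD of 0.07 against 1.05 among isoflurane rats. Each group-centred r with Bmal1, and its place among genes, therefore rests mainly on the 3 isoflurane rats and not on 6 arrays. With an isoflurane array left out, r rests mainly on the remaining isoflurane rats and shows little beyond its sign. With group means kept, the r of Bmal1 and Noct over the 6 arrays was -0.21. Dbp had a group-centred r of -0.80 with Bmal1, and 9.37% of genes had a lower one. It was -0.53 without isoflurane replicate 2 and -0.92 without isoflurane replicate 3. For Npas2 the r of 0.89 with Bmal1 turned to -0.75 without isoflurane replicate 3, whereas for Clock it stayed at 0.82. Per3 had 0.56 with Bmal1 at its brightest probe and -0.97 and -0.89 at the next brightest, so its place depends on the probe.

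**Figure D5:**
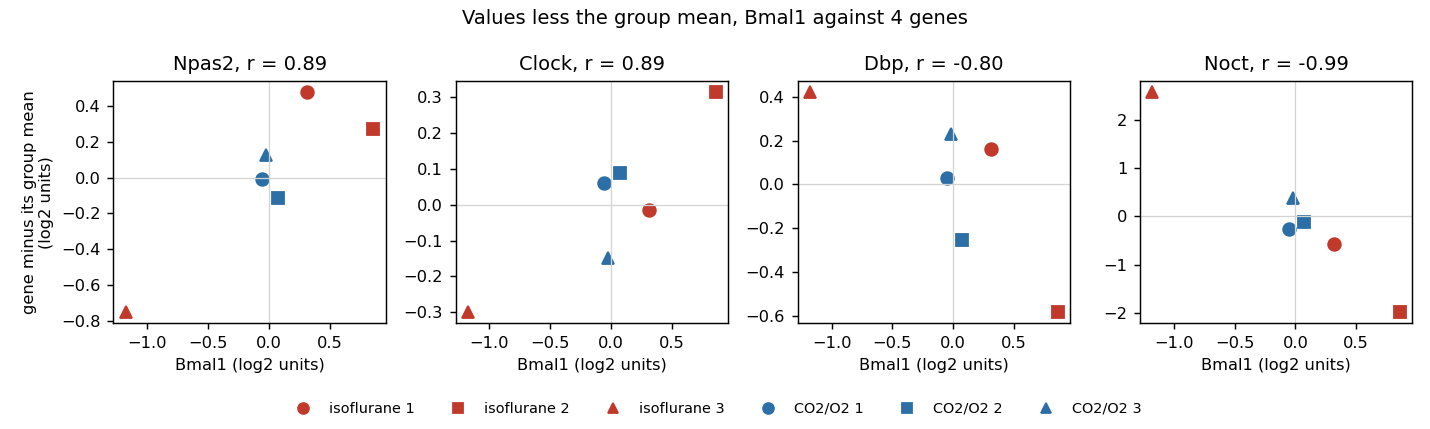
Log2 signal less the group mean of Npas2, Clock, Dbp and Noct (vertical axes, log2 units) against that of Bmal1 (horizontal axes, log2 units), 1 point per rat, isoflurane in red and CO2/O2 in blue. Isoflurane rats 2 and 3 take the ends in each panel except for Npas2, and the CO2/O2 rats lie close together for Bmal1, with an SD of 0.07.

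The 5 named genes most like Bmal1 across the 6 arrays, of 1651 that varied by an SD of at least 0.3, were Klrc3, Cd8a, Pm20d2, RT1-CE10 and Tmcc3. Their Pearson r with Bmal1 lay between 0.979 and 0.987. In all 5 the lowest value was that of isoflurane rat 3, as for 22.8% of all genes. That follows largely from picking them by r with Bmal1, which was far lowest in that rat. For RT1-CE10 the value there was -3.80, against 0.33 and 1.08 in the other isoflurane rats and 1.18 to 1.54 in CO2/O2 rats. Npas2 was number 35 in that order, with r of 0.93. The 5 most like Dbp were Lrp4, Tbc1d10a, Kcnk10, Upb1 and Scnn1a, with r between 0.945 and 0.981. Nr1d1 was number 31, Per2 number 82 and Per3, at its brightest probe, number 476. Clock, Nr1d2 and Tef varied by less than that SD and were not ranked. These r keep the group means, so the places of members hold the contrast by which they were chosen. With group means removed, r with Dbp was 0.68 for Nr1d1, 0.29 for Per2 and -0.81 for Per3.

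Of 18 other genes of the clock, 11 were tested and none passed the test. In limma 0 of the 11 passed adjusted p 0.05 in either direction and 0 had an unadjusted p under 0.05. Their median difference was 0.06, against -0.01 for all genes, with 7 positive and 4 negative. The groups were separate for 0 of the 11, against 14.2% of all genes. Per1, a repressor that responds to stress hormones, had -1.44, -2.84 and -1.21 in isoflurane rats, against -1.36, -1.48 and -1.61 in CO2/O2 rats, with isoflurane rat 2 low (difference -0.35, SE 0.42, limma adjusted p = 0.873). The cryptochromes Cry1 and Cry2, partners of the PER proteins, had differences of -0.07 (SE 0.14) and 0.05 (SE 0.21). Nfil3, a bZIP repressor that competes with DBP at D-boxes, had -0.15 (SE 0.27).

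The 4 largest of the remaining differences were small. Csnk1e and Csnk1d, kinases that mark PER proteins for turnover, had 0.22 (SE 0.13) and -0.16 (SE 0.11). Bhlhe40, an E-box repressor, had 0.22 (SE 0.29), and Timeless, a partner of replication forks with a debated part in the mammalian clock, had 0.19 (SE 0.11). Ciart did not pass the filter on dim probes, 6 listed genes had no probe matched by accession, and these 7 were not analysed here.

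Rhythmic genes of liver metabolism often took their highest and lowest values in the same 2 rats. Of 30 listed, 28 were tested and 0 passed adjusted p 0.05 in limma. At an unadjusted p under 0.05 in limma there were 2 of the 28 (Ppara higher, Id2 lower), near the share of 7.58% over all genes. The median difference of the 28 was -0.08. Without isoflurane replicate 2 the median was 0.15. The highest of the 6 values was that of isoflurane rat 3 for 17 of the 28 genes, or 60.7%, against 21.0% of all genes. The lowest was that of isoflurane rat 2 for 14 of the 28, or 50%, against 23.3%. Alas1, the first enzyme of heme synthesis and a target of the PAR bZIP factors in mouse, had 6.43, 5.97 and 7.67 in isoflurane rats, against 7.01, 7.21 and 6.89 in CO2/O2 rats. Por, which passes electrons to cytochromes P450, had 3.45, 3.21 and 4.42 in isoflurane rats, against 3.85, 3.65 and 3.83 in CO2/O2 rats. Alas1 and Por were picked after their values were seen.

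The rhythmic genes with the largest differences included both directions. Id2, an inhibitor of helix-loop-helix factors, had 2.43, 2.78 and 2.15 in isoflurane rats, against 3.37, 3.16 and 3.08 in CO2/O2 rats (difference -0.75, SE 0.18, limma adjusted p = 0.550). Ppara, the fatty acid receptor, had 1.75, 1.80 and 1.97 in isoflurane rats, against 0.85, 1.18 and 1.60 in CO2/O2 rats (0.63, SE 0.20, limma adjusted p = 0.597). For both genes the groups did not overlap, which held for 3 of the 28 rhythmic genes and for 14.2% of all genes. Upp2, a uridine phosphorylase, had 0.65 (SE 0.55), and Nr1i3, the xenobiotic receptor CAR, had 0.41 (SE 0.27). Tsc22d3, induced by glucocorticoids, had -0.61 (SE 0.32), and Nampt, of NAD synthesis, -0.53 (SE 0.26). Cyp7a1, the rate-limiting enzyme of bile acid synthesis, had -0.47 (SE 0.66), with overlapping groups.

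Markers of other liver cells moved with the groups. All 11 of 11 Kupffer cell markers were lower in mean after isoflurane, and they summed to 171 to 202 times the 75th percentile in isoflurane rats, against 212 to 260 times in CO2/O2 rats. The 6 tested of 10 lymphocyte markers, Cd8a among them, were lower too and summed to 2.93 to 2.99 times the percentile in isoflurane rats, against 3.06 to 3.53 times in CO2/O2 rats. Their mean deviation was lowest, at -0.47 log2 units, in isoflurane rat 3, the rat lowest for Bmal1. The 4 tested of 5 erythroid markers were also lower in mean, with sums of 323 to 429 after isoflurane and 394 to 561 after CO2/O2, and their groups overlapped. None of these markers passed adjusted p 0.05 in limma (0 of 11, 0 of 6 and 0 of 4). An unadjusted p under 0.05 in limma was found for 6 of 11 Kupffer, 2 of 6 lymphocyte and 2 of 4 erythroid markers, against 7.58% of all genes. Sums of endothelial (4 of 6 tested), stellate (5 of 5) and cholangiocyte (3 of 4) markers overlapped between groups. These Kupffer, lymphocyte and erythroid markers were well above background on all 6 arrays, and the part of these cells in the clock gene values was not tested.

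Place on the slide also moved with the groups. A block for slide row leaves a comparison that rests on isoflurane replicate 1 against the CO2/O2 rats. It gave differences of -0.91 for Bmal1, -0.12 for Npas2, 1.03 for Dbp, 0.23 for Tef, 0.23 for Per3 and -2.31 for Noct, each with the sign it had over all rats. Isoflurane replicates 2 and 3 alone lay in row 2, so row 2 has no value of its own.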

How the data were processed

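Liver RNA of 6 rats was labelled with Cy3 from 0.2 ug, per the labels' protocols, and read with Agilent Feature Extraction 10.7, per the submitters' processing notes. The deposited spot values are intensity values on a linear scale, background-corrected but not scaled between arrays, per the file headers. The deposited value table holds a ratio: each column, set against that array's scanner output, was the processed intensity divided by 1 number near the array's 75th percentile, uncentred. Its medians were 0.0917, 0.0901 and 0.0905 for isoflurane replicates 1 to 3 and 0.0864, 0.0882 and 0.0868 for CO2/O2 replicates 1 to 3. The sources used here do not say how the authors chose that divisor.

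Log2 processed intensity less the array's 75th percentile over 61657 non-control probes was fitted with limma 3.58.1 in R 4.3.3 (lmFit, eBayes), with Benjamini-Hochberg adjustment over all 34637 tested probes. The filter kept probes with a well-above-background flag on every array of 1 group or both; 177 outlier spots were left out and 0 were saturated. Accessions without versions were matched to RefSeq genes (assembly GRCr8): 27460 probes matched 1 gene, 0 several and 34197 none. A gene took its brightest tested probe. The arrays' headers name build rn4, so no array position is given. Files were read and plots drawn with Python 3.11.15, pandas 2.3.3 and matplotlib 3.10.9.

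The members, lists and tests were chosen with earlier results of these data known. Named by rule were all members, 7 other clock genes where measured plus the 4 with the largest difference, the 8 rhythmic output genes with the largest difference, and the 5 genes most correlated with Bmal1 and Dbp; some of these are not reported here. Simulated data (10 sets with 34570 probes) took each probe's mean and within-group SD from the isoflurane and CO2/O2 arrays. There the fit recovered 56.7% of 2-fold and 89.8% of 4-fold changes, with 5.7% false among calls. The simulated noise was independent and equal in both groups. In the data the SD was larger among isoflurane rats for 60.9% of genes, so these rates may not hold for them. Alternatives were normexp (offset 50, on median signals), quantile and median scaling, the value table, 2 other filters, outliers kept, trend and robust eBayes, replicate and slide row blocks, probe means, unadjusted p, and each array left out. Labels say 1 rat per array, and the number of arrays limits the precision.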

Additional observations from a re-analysis of the deposited data

How the results depend on the processing

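Of 170 values of the 10 genes under other settings, 0 changed sign and 1 moved by more than the within-group SD, that of Npas2 with the slide row as a block (-0.12). Many of the 170 could not move. All 10 differences were identical with either other filter, outliers kept, trend and robust eBayes or the replicate block, and nearly so with the value table. Of 132 values of the limb averages with group means removed, 0 moved by more than the SD, but 9 changed sign, and 48 were identical, as where the array left out is of the other group. The activator average of isoflurane rat 1 was 0.26, and -0.11 without isoflurane replicate 3. The 3 probes past the threshold became 5 with normexp, 1 with no filter on dim probes, 5 with trend and robust eBayes, 0 with the replicate number as a block and 2616 at an unadjusted p. With an array left out they numbered 1 to 20: 17 lacking isoflurane replicate 1, 5 lacking isoflurane replicate 2, 1 lacking isoflurane replicate 3 or CO2/O2 replicate 1, and 20 lacking CO2/O2 replicate 3. Among genes the 0 past the threshold became 1 when slide row was blocked and 804 without adjustment. Leaving out arrays gave 0 to 8 genes, with 8 lacking isoflurane replicate 1 and 4 lacking CO2/O2 replicate 3. For the rhythmic output genes the count of 0 was 2 at an unadjusted p, and for the other clock genes it was 0 in all 18 alternatives. The median of the other clock genes ran from 0.00049 (median centring) to 0.12 (probe means), and that of the rhythmic genes was 0.15 lacking isoflurane replicate 2 and -0.20 to -0.03 in the other alternatives. The cause of these changes was not tested. Same-numbered arrays of the groups had deviations correlated at 0.13, -0.02 and 0.10 across genes. Replicates 1 and 3 of each group correlated best with their own number, and replicate 2 of neither group did. These values do not settle whether same-numbered arrays were paired, and the replicate block leaves the 10 differences as they were. With 3 rats per group, the median gene had a 95% confidence interval of 0.29 log2 units to either side, and the dimmest Npas2, Noct and Per3 probes were near background.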
